A study of Mus musculus with 6 samples.

Results

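The Fc gamma receptors bind the constant part of immunoglobulin G (IgG) and, with their signalling chain, are described here as 7 genes: Fcgr1, Fcgr3 and Fcgr4 (activating receptors), Fcgr2b (the inhibitory receptor), Fcer1g (the shared signalling chain), Syk (the kinase recruited to that chain) and Fcgrt (the neonatal receptor FcRn). All 7 were among the 17119 gene symbols of the table and all 7 were among the 12706 that passed the filter on low counts. The data were read counts from 6 samples of whole liver from mice kept for 12 weeks on HFHCD, a diet rich in fat and cholesterol. The 3 wild-type samples had the genotype Clec4f-iCre;Cebpb+/+ and the 3 heterozygous samples, from littermates, Clec4f-iCre;Cebpbfl/+. All animals therefore carried iCre, driven by the promoter of Clec4f, a lectin gene of Kupffer cells (the resident macrophages of liver), so the loss of 1 Cebpb copy was aimed at those cells while RNA came from every cell of the tissue. Age and sex are not in the labels, and the genotype labels of replicates 2 and 3 write the Cre driver as Clec5f and Clec6f where the series design names Clec4f throughout. Nothing ties the samples to separate animals, so p-values measure only the spread between these samples, which may be partly technical.

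An activating Fc gamma receptor carries no ITAM of its own in the mouse. It is held at the surface by the chain encoded by Fcer1g, whose ITAM (a motif with a pair of tyrosines) is phosphorylated by Src-family kinases when IgG complexes cluster the receptor, and Syk then docks on it and starts phagocytosis and inflammatory signalling. Fcgr2b carries an ITIM in its tail, recruits the phosphatase SHIP1 and damps the same signal. In liver the activating receptors are known from Kupffer cells, monocytes and neutrophils, and Fcgr2b is abundant on sinusoidal endothelium, where it clears small immune complexes. FcRn works apart from this pathway: it pairs with β2-microglobulin and returns IgG and albumin from endosomes to the blood, and hepatocytes, endothelium and macrophages all express it.

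The family was proposed with the genotype contrast of these same libraries in view. In the fit over all genes, Fcgr1, Fcgr3 and Fcgr4 had passed an edgeR adjusted p of 0.05 as lower in the heterozygous samples (3 of the 7 members, against 0.559% of all tested genes). Of all tested genes 0.0236% were called higher and 0.582% in either direction, against 0 and 3 of the members, and a negative fold change was found for 49% of all tested genes and 5 of the members. Nothing is read from these counts, and the values of the members are a description without a test. The calls also depended on single libraries, for the members and over all genes. Without wild-type replicate 1, wild-type replicate 2, heterozygous replicate 1 or heterozygous replicate 2, 0 members passed. Of all tested genes 4, 6, 0 and 0 were then called lower, in that order, and 0 higher. Without wild-type replicate 3, 1 member passed (Fcgr3), with 19 of all tested genes called lower and 1 higher. Without heterozygous replicate 3, 3 members passed (Fcgr1, Fcgr3 and Syk), with 107 of all tested genes called lower and 15 higher. These refits tested 12842 to 12931 genes. Library totals ran from 16895322 to 17750755 counts. Levels are CPM (counts scaled to a common library size with TMM factors) and their errors the SD of 3 libraries. A log2 fold change compares heterozygous with wild-type samples and carries its SE from edgeR. Cebpb, the floxed gene, measured 506, 308 and 340.4 CPM in the wild-type and 204, 498 and 269 CPM in the heterozygous samples, with overlapping groups (log2 fold change −0.25 ± 0.37), in RNA of all liver cells. Clec4f, whose promoter drives the Cre, measured 48.6, 38.5 and 5.42 CPM and 4.31, 4.97 and 3.9 CPM, so that wild-type replicate 3 lay close to the heterozygous libraries. A fold change of a whole-liver RNA cannot tell fewer cells of a type from less RNA per cell.

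The sequence just before each receptor gene is shown first, because the 3 activating receptors were lower in every heterozygous library while Fcgr2b was higher. RefSeq (GRCm38.p6, an older build than the GRCm39 of the counts) gave a start for all 7 members, and the 250 bases before it were searched on both strands for 6 motifs. These were GAGGAAGT and its core GAGGAA (PU.1, the transcription factor of myeloid cells), TTGCGCAA and the looser TTNCNNAA (C/EBP factors), TTCNNNGAA (GAS, bound by STAT dimers) and the ISRE core, GAAA and GAAA with any 2 bases between them (bound by interferon-regulated factors). Each sequence runs 5′ to 3′ on the strand of its gene, and capitals mark matches to GAGGAA, TTNCNNAA, TTCNNNGAA or the ISRE core on either strand.
Fcgr1, chr3:96293970-96294219, minus strand: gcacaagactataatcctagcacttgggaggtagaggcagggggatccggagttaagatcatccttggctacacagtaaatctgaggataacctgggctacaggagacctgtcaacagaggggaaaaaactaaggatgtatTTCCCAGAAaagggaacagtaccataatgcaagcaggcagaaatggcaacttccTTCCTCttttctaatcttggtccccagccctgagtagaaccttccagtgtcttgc
Fcgr3, chr1:171059395-171059644, minus strand: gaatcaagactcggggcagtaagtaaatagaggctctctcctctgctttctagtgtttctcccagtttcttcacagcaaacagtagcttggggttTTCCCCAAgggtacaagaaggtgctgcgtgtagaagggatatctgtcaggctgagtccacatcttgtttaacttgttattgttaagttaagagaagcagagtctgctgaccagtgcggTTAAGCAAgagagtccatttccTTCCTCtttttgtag
Fcgr4, chr1:171018676-171018925, plus strand: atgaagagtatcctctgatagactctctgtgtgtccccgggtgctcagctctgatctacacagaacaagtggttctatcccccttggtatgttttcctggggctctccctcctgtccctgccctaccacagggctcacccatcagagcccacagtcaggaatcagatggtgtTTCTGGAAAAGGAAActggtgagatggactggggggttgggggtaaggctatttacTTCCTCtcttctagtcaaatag
Fcgr2b, chr1:170976072-170976321, minus strand: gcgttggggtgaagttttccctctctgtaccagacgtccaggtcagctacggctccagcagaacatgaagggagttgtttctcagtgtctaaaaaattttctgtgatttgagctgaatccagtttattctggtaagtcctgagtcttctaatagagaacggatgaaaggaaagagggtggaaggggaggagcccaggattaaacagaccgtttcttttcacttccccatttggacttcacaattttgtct

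GAGGAA, read on the opposite strand as TTCCTC, lay 55 bases before the start of Fcgr1, 15 bases before that of Fcgr3 and 22 bases before that of Fcgr4. It was also in 1 of the 2 Syk windows, and in 23.3% of 32851 RefSeq promoter windows of the same length. In Fcgr4 alone among the members it was part of the full GAGGAAGT, which 2.44% of windows hold. The window of Fcgr1 held a GAS match 109 bases before the start (7.02% of windows), and that of Fcgr4 an ISRE match (2.98%) that overlaps a TTNCNNAA match. TTNCNNAA occurred 2 times before Fcgr3 and 1 time before Fcgr4, Fcgrt and a start of Syk, against 36.8% of all windows, and TTGCGCAA (0.164% of windows) before 0 of the members. The windows of Fcgr2b and Fcer1g held 0 of the 6 motifs. RefSeq gives a further start for Fcgr3, 9 bases away, whose window holds the same matches. A match is only a run of letters, and its absence says nothing of binding elsewhere.

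Fcgr3, the low-affinity activating receptor CD16, had levels of 25.9, 31.7 and 25.9 CPM in the wild-type samples (replicates 1, 2 and 3, the order kept for every gene) and of 8.97, 9.87 and 12.96 CPM in the heterozygous samples. Every wild-type library was higher than every heterozygous one. The means were 27.8 ± 3.38 and 10.6 ± 2.09 CPM, which is 2.62-fold lower in the heterozygous samples (log2 fold change −1.39 ± 0.17). Fcgr1, which encodes the high-affinity receptor CD64, measured 8.30, 9.74 and 7.61 CPM in the wild-type and 2.85, 2.97 and 3.96 CPM in the heterozygous samples. Its groups did not overlap either, and the heterozygous mean was also 2.62-fold lower (8.55 ± 1.09 and 3.26 ± 0.61 CPM, log2 fold change −1.39 ± 0.21). Fcgr4, the CD16-2 receptor that binds IgG2a and IgG2b, measured 16.7, 26.3 and 14.8 CPM in the wild-type and 5.59, 7.75 and 7.97 CPM in the heterozygous samples. The spread of its wild-type libraries was wider, with replicate 2 well above the others, and the groups did not overlap (19.3 ± 6.20 and 7.11 ± 1.32 CPM, log2 fold change −1.44 ± 0.25, 2.71-fold lower).

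Fcer1g, the chain through which all 3 of these receptors signal, measured 30.0, 46.1 and 30.0 CPM in the wild-type and 13.9, 9.57 and 18.01 CPM in the heterozygous samples. Wild-type replicate 2 was again the highest and heterozygous replicate 3 the highest of its group, and the groups did not overlap. The heterozygous mean was 2.56-fold lower (35.4 ± 9.27 and 13.8 ± 4.22 CPM, log2 fold change −1.36 ± 0.26). Syk stood at 16.9, 20.4 and 13.7 CPM in the wild-type and at 6.23, 6.91 and 9.86 CPM in the heterozygous samples, also without overlap. Its heterozygous mean was 2.21-fold lower (16.99 ± 3.36 and 7.67 ± 1.93 CPM, log2 fold change −1.15 ± 0.22). Groups lay apart in the lower direction for 5 of the 7 members, as they did for 11.3% of all tested genes, and this too is part of the contrast the family was chosen on.

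Fcgr2b, the inhibitory receptor, was not called in the fit over all genes or in any alternative, and its fold change had the opposite sign. It measured 28.6, 22.2 and 30.0 CPM in the wild-type and 35.6, 41.9 and 31.7 CPM in the heterozygous samples. The groups did not overlap, though wild-type replicate 3 and heterozygous replicate 3 lay close together. The heterozygous mean was 1.35-fold higher (26.9 ± 4.15 and 36.4 ± 5.15 CPM, log2 fold change 0.44 ± 0.15), and of all tested genes 7.05% had groups that lay apart in the higher direction. Its fold change stayed positive, between 0.32 and 0.53, in each of the 15 alternative fits. Fcgrt, the neonatal receptor, had overlapping groups. It stood at 159.8, 185 and 193 CPM in the wild-type and at 187, 171 and 203 CPM in the heterozygous samples, with means of 179 ± 17.3 and 187 ± 16.0 CPM and a log2 fold change of 0.06 ± 0.12.

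**Figure D1:**
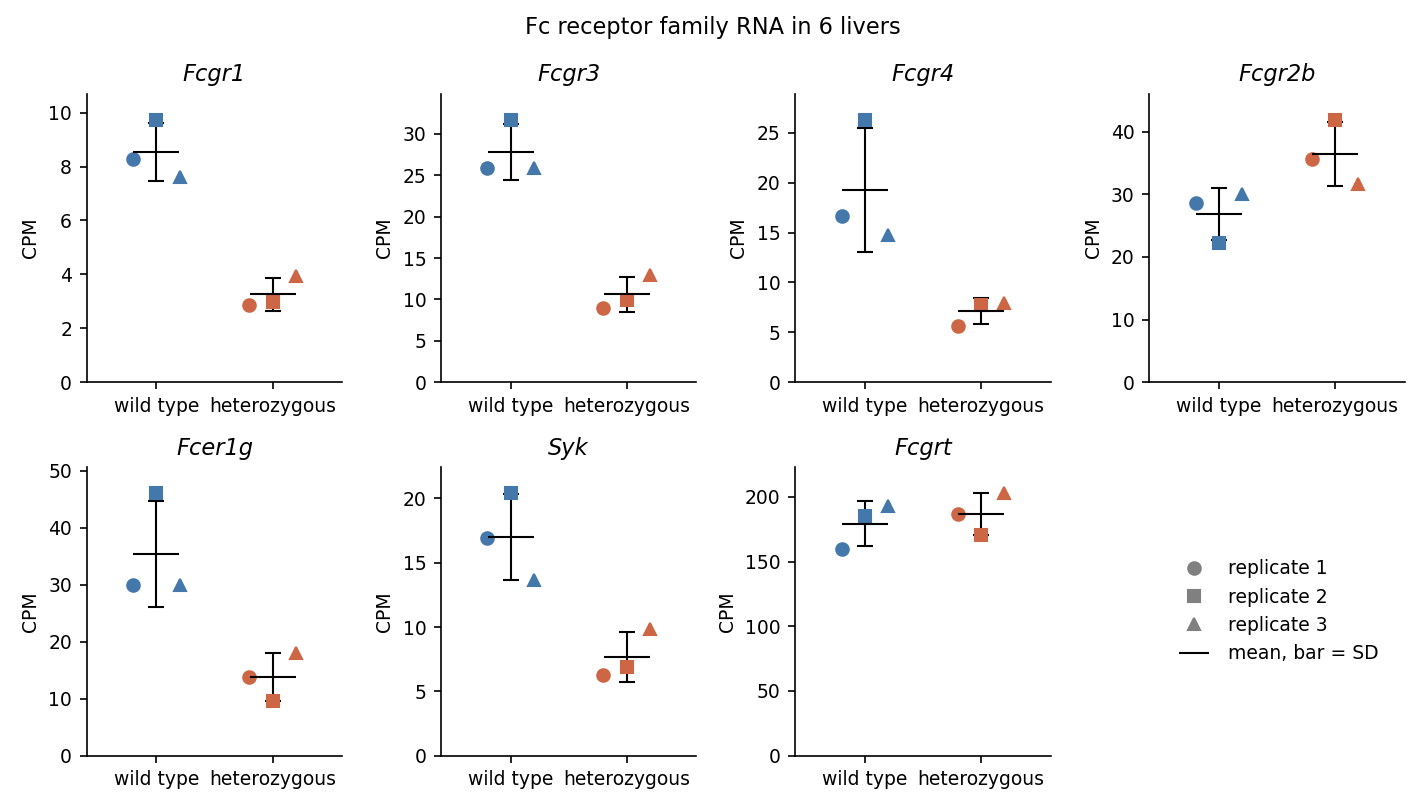
Levels of the 7 genes in CPM (vertical axes, each from 0) in 3 wild-type and 3 heterozygous samples; points are libraries, with a symbol for each replicate number, and bars are the mean and SD. Fcgr1, Fcgr3, Fcgr4, Fcer1g and Syk lie lower in every heterozygous library, Fcgr2b lies higher, and the Fcgrt groups overlap.

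Levels of different genes were compared per length of the longest protein-coding transcript in GENCODE M21, as CPM per kilobase. In wild-type samples the order was Fcgrt (101 ± 9.79), Fcer1g (51.8 ± 13.6), Fcgr3 (20.7 ± 2.51), Fcgr4 (15.3 ± 4.94), Fcgr2b (7.59 ± 1.17), Fcgr1 (3.30 ± 0.42) and Syk (3.17 ± 0.63 CPM per kilobase). Fcgr3 and Fcgr4 overlapped between libraries, as did Fcgr1 and Syk. In heterozygous samples Fcgrt stood at 106 ± 9.02, Fcer1g at 20.2 ± 6.18, Fcgr2b at 10.3 ± 1.45, Fcgr3 at 7.87 ± 1.55, Fcgr4 at 5.66 ± 1.05, Syk at 1.43 ± 0.36 and Fcgr1 at 1.26 ± 0.23 CPM per kilobase. Fcgr2b thus stood below Fcgr4 in wild-type samples and beside Fcgr3, whose libraries it overlapped, in heterozygous ones. The place of Fcgr2b depends on its length: its transcripts run to 3544 bases with a median of 1520, and with the median it stood at 17.7 CPM per kilobase in wild-type samples and 23.95 in heterozygous samples, between Fcgr3 and Fcgr4 and above Fcer1g respectively.

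Activating and inhibitory receptors were compared as a ratio of counts within each library, which needs no scaling between libraries. In whole liver this ratio mixes RNA of different cell types, so it is no measure of balance on any cell. Fcgr1, Fcgr3 and Fcgr4 together had 1.78, 3.05 and 1.61 counts for each Fcgr2b count in wild-type samples 1, 2 and 3, and 0.489, 0.491 and 0.785 in heterozygous samples 1, 2 and 3. In raw counts, which are not corrected for gene length, the sum was above Fcgr2b in all 3 wild-type libraries and below it in all 3 heterozygous ones. Per length of the longest transcript Fcgr2b made up less than the other 3 together in all 6 libraries. Its share of the 4 receptors was then 18.4%, 11.5% and 19.97% in wild-type and 45.1%, 44.7% and 33.8% in heterozygous replicates 1, 2 and 3. That order depends on the length used. With median lengths the heterozygous means were 23.95 CPM per kilobase for Fcgr2b, 8.01 for Fcgr3, 5.66 for Fcgr4 and 1.26 for Fcgr1. The wild-type means were 17.7, 21.0, 15.3 and 3.30 in the same gene order. On the log2 scale the group means of the count ratio were 1.04 ± 0.50 and −0.80 ± 0.39, a difference of −1.85, or 3.59-fold. The receptors taken alone gave nearly the same difference, at −1.84 for Fcgr1, −1.84 for Fcgr3 and −1.85 for Fcgr4. Leaving out each library in turn moved the difference for the sum between −2.07 and −1.56. The ratio rests on the contrast the family was chosen on, so these values are a description.

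Fcgr2b made up 36.0%, 24.7% and 38.3% of the counts of the 4 receptors in wild-type samples and 67.1%, 67.1% and 56.0% in heterozygous samples. With 910 to 1654 receptor counts per library the exact 95% binomial intervals cover counting error only, and not the spread between samples. These shares rest on the contrast the family was chosen on and are a description. Group means were 33.0 ± 7.30% and 63.4 ± 6.39%. Per length of the longest transcript they were 16.6 ± 4.52% and 41.2 ± 6.39%, values that depend on the length used. Fcgr3 made up 33.6 ± 1.41% and 18.5 ± 3.82%, Fcgr4 23.0 ± 5.49% and 12.4 ± 1.77%, and Fcgr1 10.3 ± 0.56% and 5.71 ± 1.16%. The sum over the 4 receptors stood at 82.5 ± 6.48 CPM in wild-type samples and 57.4 ± 4.80 CPM in heterozygous samples.

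**Figure D2:**
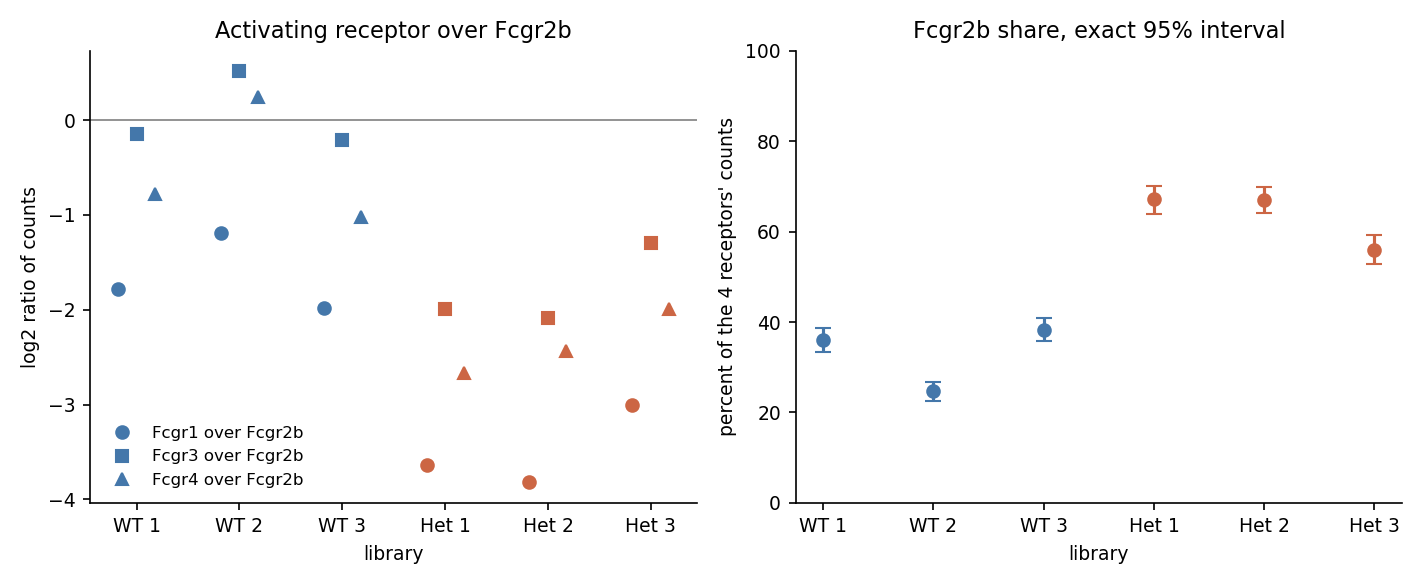
Left, log2 ratio of the counts of Fcgr1, Fcgr3 or Fcgr4 to those of Fcgr2b in each of 6 libraries, with a line at equal counts; right, Fcgr2b as a percent of the counts of the 4 receptors, with exact 95% binomial intervals. All 3 ratios are lower in every heterozygous library, and the Fcgr2b share runs from 24.7% to 38.3% in wild-type samples and from 56.0% to 67.1% in heterozygous samples.

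Fcgr2b and Fcgr3 have closely similar extracellular parts, so reads can be shared between them. Of the 50-base windows along the longest transcript, 12.8% for Fcgr3 and 11.4% for Fcgr2b also occurred in transcripts of another gene, in the case of Fcgr3 only in Fcgr2b. At 100 bases the shares were 3.53% and 3.54%. For Fcgr1, Fcgr4, Fcer1g, Fcgrt and Syk 0 windows were shared at either length. How the counter treated shared reads is not given in the sources used here, so the levels of Fcgr2b and Fcgr3 are uncertain.

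The mix of activating receptors itself differed between the groups by less than the spread between libraries. Fcgr1 had between 0.294 and 0.321 counts for each Fcgr3 count in all 6 libraries, with a log2 ratio of −1.70 ± 0.06 in wild-type samples and −1.70 ± 0.04 in heterozygous samples. Counting error alone would give a single library an SD of about 0.14 and 0.22 on that scale, so these ratios lay closer together than counting error. The log2 ratio of Fcgr4 to Fcgr3 was −0.57 ± 0.28 and −0.58 ± 0.20, and that of Fcer1g to the sum of the 3 receptors −0.67 ± 0.10 and −0.63 ± 0.41. Fcer1g in heterozygous replicate 2 stood apart from this mix, with 0.465 counts per receptor count against 0.591 to 0.796 in the other libraries. Syk against Fcer1g gave −1.05 ± 0.19 and −0.83 ± 0.34, with overlapping groups.

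Inside the groups the libraries ranked alike for several members. Among the wild-type libraries replicate 2 was the highest for Fcgr1, Fcgr3, Fcgr4, Fcer1g and Syk, and the lowest for Fcgr2b. Among the heterozygous libraries replicate 3 was the highest for the same 5 genes, and again the lowest for Fcgr2b. Measured from its group mean on the log2 CPM scale, wild-type replicate 2 lay at 0.20 for Fcgr3, 0.50 for Fcgr4, 0.41 for Fcer1g and −0.26 for Fcgr2b. Heterozygous replicate 3 lay at 0.31 for Fcgr3, 0.18 for Fcgr4, 0.43 for Fcer1g and −0.19 for Fcgr2b. With 3 libraries a group these positions are a description only.

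**Figure D3:**
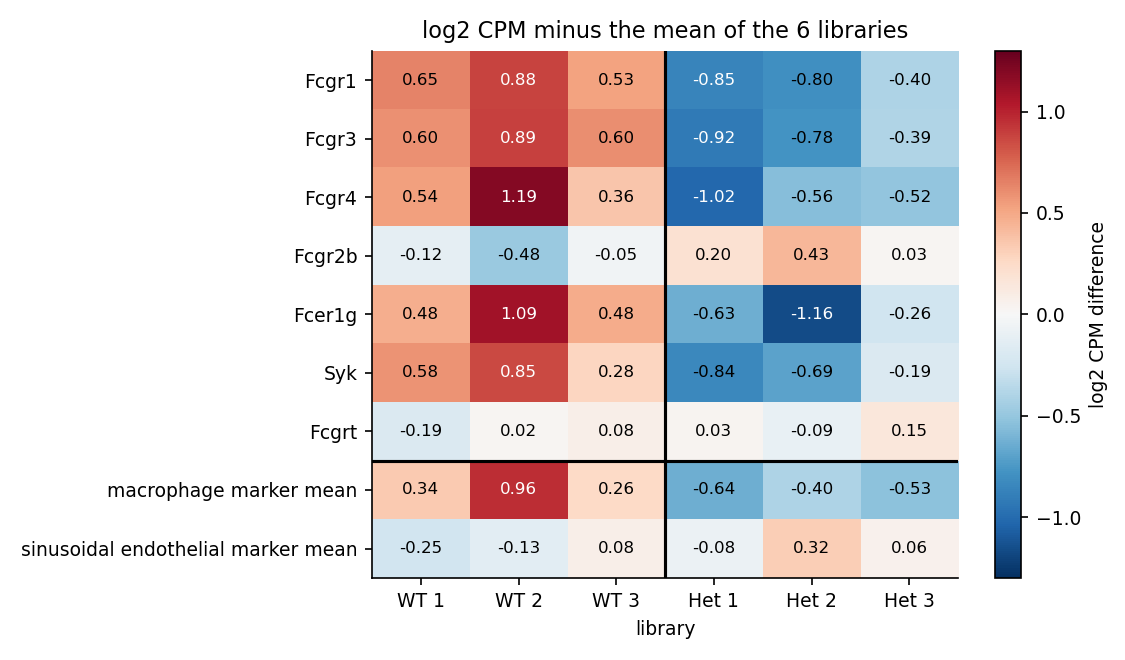
log2 CPM of each of the 7 genes, and of the mean of 12 macrophage and 14 sinusoidal endothelial markers, minus its own mean over the 6 libraries (columns; WT, wild-type; Het, heterozygous). The activating receptors, Fcer1g, Syk and the macrophage mean are above their average in all wild-type and below it in all heterozygous libraries, and wild-type replicate 2 is the highest for each.

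The genes whose pattern came nearest to a member were found by the root mean square difference of log2 CPM over the 6 libraries, each gene centred on its own mean, among 11149 other genes whose log2 CPM averaged 1 or more. Nearest to Fcgr3 were Fcgr1 (0.05), the cation channel gene Trpv2 (0.08), Ifi205 (0.08), the lysosomal protease gene Ctss (0.09) and Ucp2, a mitochondrial carrier gene (0.11). Ctss, for example, stood at 121, 174 and 139 CPM in the wild-type and at 45.2, 51.5 and 73.8 CPM in the heterozygous samples. Nearest to Fcgr2b were Cela1 (0.08), the integrin gene Itga5 (0.08), Prxl2b (0.08), Mal2 (0.08) and Myct1 (0.08). Nearest to Fcgrt were Acsf3, Cryz, Mlycd, Etfrf1 and Pebp1, all within 0.04, which have flat profiles like its own. Among the members, Fcgr3 was 0.16 from Syk, 0.19 from Fcgr4, 0.23 from Fcer1g, 0.74 from Fcgrt and 0.98 from Fcgr2b.

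On chromosome 1 of the mouse Fcgr2b, Fcgr4 and Fcgr3 are neighbours in that order, and Fcer1g lies further along the same chromosome. The gene between Fcgr2b and Fcgr3 therefore shared the lower level of Fcgr3 and not the higher level of Fcgr2b. Beyond Fcgr3 the next tested genes were Cfap126 (log2 fold change −0.39 ± 0.28) and Sdhc (0.00 ± 0.11), a subunit of succinate dehydrogenase. Fcer1g sits next to Apoa2, an apolipoprotein gene (0.21 ± 0.21). These 3 neighbours had overlapping groups and did not pass the test (edgeR adjusted p = 0.640, 0.996 and 0.767). Within 3 genes of Syk lies Sema4d, a semaphorin gene, which fell (−1.75 ± 0.26, adjusted p = 0.0357), and within 3 genes of Fcgr1 Txnip (−0.73 ± 0.19, adjusted p = 0.130). Next to Fcgrt, Rcn3 measured −0.36 ± 0.25.

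Among the cell type markers, those of macrophages had calls in the same direction as the activating receptors. Of 12 macrophage markers, all of them detected and tested, 4 fell (Lyz2, Cd68, C1qa and C1qb) and 0 rose in edgeR, with a median log2 fold change of −1.13 against 0.00 over all tested genes; DESeq2 called 9 lower and limma-voom 4, and 0 had an unadjusted p under 0.05 as higher. Lyz2, the lysozyme of myeloid cells, stood at 262 ± 81.2 and 81.9 ± 11.6 CPM. The summed level of the 12 markers ran from 826 to 1335 CPM in wild-type samples and from 425 to 534 CPM in heterozygous samples. Monocyte and recruited macrophage markers had 1 of 10 lower (Ccr2, the receptor that draws monocytes to tissue; 5 lower in DESeq2 and 1 in limma-voom) with sums of 1605 to 2489 and 1152 to 2074 CPM, mostly Fn1, which hepatocytes also make. Kupffer cell markers had 0 of 9 called in edgeR (5 lower and 0 higher at an unadjusted p under 0.05; 4 lower in DESeq2 and 0 in limma-voom) and sums of 390 to 635 and 285 to 334 CPM. Clec4f is among them, and the sums also take in Cd163, which was not tested. The part of cell number in the receptor levels was not tested.

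Set against the mean of the 12 macrophage markers in the same library, on the log2 CPM scale, the differences of the activating arm were smaller. Fcgr3 lay at −0.77 ± 0.22 in wild-type samples and −1.12 ± 0.28 in heterozygous samples, a difference of −0.35, and Fcgr1 differed by −0.32, Fcgr4 by −0.35, Fcer1g by −0.32 and Syk by −0.10. Single libraries moved these values: without heterozygous replicate 2 the difference was −0.02 for Fcer1g, −0.20 for Fcgr1 and 0.02 for Syk, and without heterozygous replicate 3 it was −0.54 for Fcer1g and −0.30 for Syk. Over all left-out libraries Fcgr1 ran from −0.47 to −0.20, Fcgr3 from −0.51 to −0.25 and Fcgr4 from −0.45 to −0.25. Syk was at 0.00 (−0.004) without wild-type replicate 1, −0.03 (−0.026) without heterozygous replicate 1 and −0.18 without wild-type replicate 2. The groups overlapped for each of these except Fcgr4, whose levels were −1.34 ± 0.07 and −1.69 ± 0.20. With Adgre1 and Csf1r, the F4/80 antigen and the CSF1 receptor, as the only markers the differences were 0.00 for Fcgr1, −0.03 for Fcgr3, −0.03 for Fcgr4 and 0.22 for Syk. Adgre1 rests heavily on wild-type replicate 2, with 21.4, 87.1 and 27.1 CPM in the wild-type group. Against the same 12 markers Fcgr2b differed by 1.48 and Fcgrt by 1.104, with no overlap between groups.

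Sinusoidal endothelium was the reference for Fcgr2b. Of its 14 markers, all tested, 0 passed in edgeR (4 higher and 0 lower at an unadjusted p under 0.05; 1 higher in DESeq2 and 0 in limma-voom), and the median log2 fold change was 0.215. Stab1, a scavenger receptor gene, stood at 73.19 ± 1.999 and 75.5 ± 16.1 CPM and Dnase1l3, a secreted nuclease gene, at 69.3 ± 7.93 and 77.3 ± 6.58 CPM. The summed level ran from 427 to 533 CPM in wild-type samples and from 515 to 650 CPM in heterozygous samples. Set against the mean of these 14 markers, Fcgr2b lay at −0.11 ± 0.24 in wild-type samples and 0.13 ± 0.15 in heterozygous samples, a difference of 0.23 with overlapping groups, whereas Fcgr3 differed by −1.60, Fcgr4 by −1.60 and Fcgr1 by −1.57 without overlap. Of 10 general endothelial markers 0 passed in edgeR (3 lower and 1 higher at an unadjusted p under 0.05; 1 higher in DESeq2 and 0 in limma-voom), with Eng at 87.6 ± 12.8 and 84.7 ± 8.03 CPM.

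**Figure D4:**
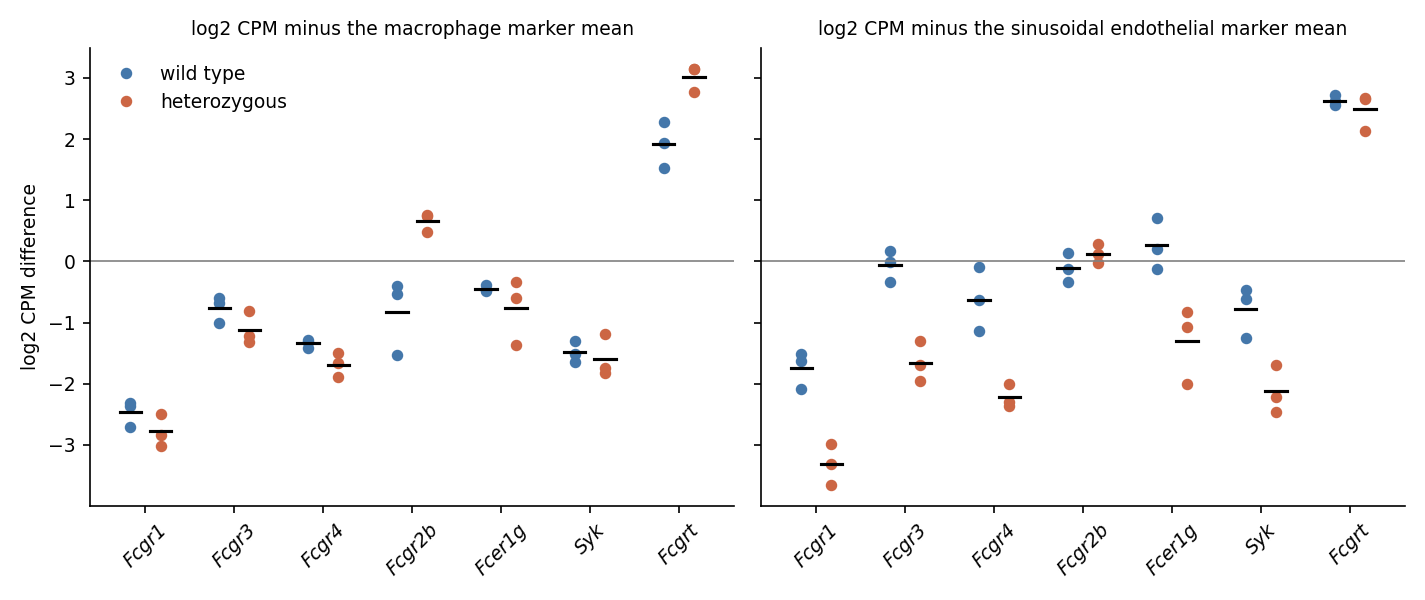
log2 CPM of each of the 7 genes minus the mean log2 CPM of the macrophage markers (left) or of the sinusoidal endothelial markers (right) in the same library; points are libraries and lines group means, and gene lengths are not corrected. Fcgr2b and Fcgrt separate by group against the macrophage markers, with differences of 1.48 and 1.104, and the activating arm separates against the endothelial markers.

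Other cells with Fc gamma receptors were followed in the same way, and sums take in every listed gene present in the data, tested or not. Neutrophil markers had 1 of 5 tested lower (Csf3r, at 13.5 ± 2.61 and 5.66 ± 1.26 CPM; 3 lower in DESeq2 and 0 in limma-voom) and sums of 24.5 to 33.6 CPM in wild-type samples and 8.79 to 12.7 CPM in heterozygous samples. NK cell markers, whose cells carry Fcgr3, had 0 of 5 called in edgeR, DESeq2 and limma-voom (1 lower at an unadjusted p under 0.05) and sums of 10.3 to 12.2 and 6.08 to 7.86 CPM. B and plasma cell markers, whose cells carry Fcgr2b, had 0 of 6 called by any of the 3 tools and 0 with an unadjusted p under 0.05, and their sums overlapped (211 to 317 and 234 to 292 CPM), mostly through Sdc1, which hepatocytes also express. Dendritic cell markers had 0 of 7 called in edgeR and limma-voom and 3 lower in DESeq2 (5 lower at an unadjusted p under 0.05), with Irf8 at 25.4 ± 1.22 and 13.3 ± 3.82 CPM. Mast cell and basophil markers had 0 of 3 called by any of the 3 tools (1 lower at an unadjusted p under 0.05), and Cpa3 and Mcpt4 had no count in any library; Hdc and Kit stood under 6 CPM in either group mean. Platelet markers had 0 of 3 called in edgeR and limma-voom and 1 lower in DESeq2 (1 lower at an unadjusted p under 0.05), with Itga2b at 5.52 ± 0.99 and 5.86 ± 0.86 CPM. Hepatocyte markers had 0 of 9 called by any of the 3 tools and 0 with an unadjusted p under 0.05, with Apoa1 at 10820 ± 2417 and 10680 ± 784 CPM.

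The rest of the pathway was described from 10 lists of genes that work with the receptors. They held 131 genes in all, of which 118 were in the table and 101 were tested. These lists, like those of the cell type markers, were drawn up with earlier results of these data known. Their counts are therefore a description, and the shares of all tested genes beside them make no test. In edgeR 10 of the 101 fell and 0 rose, or 9.90% lower against 0.559% of all tested genes, and the median log2 fold change was −0.855 against 0.005. Of the 101, 91 had fold changes below 0 and 10 above it, and groups lay apart in the lower direction for 67 (66.3%, against 11.3% of all tested genes) and in the higher direction for 0. At an unadjusted p under 0.05, 63 were lower and 0 higher, against 1677 of all 12706 tested genes in either direction. DESeq2 called 40 lower and limma-voom 3, and 0 higher in either. Over all tested genes DESeq2 called 452 lower and 82 higher, and limma-voom 45 and 1. The 10 calls became 0 without wild-type replicate 1, wild-type replicate 2, heterozygous replicate 1 or heterozygous replicate 2. They became 1 without wild-type replicate 3 and 9 without heterozygous replicate 3. In the same order 4, 6, 0, 0, 19 and 107 of all tested genes were called lower.

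Src-family kinases act first, on the ITAM. Of 10 tested kinases of the Src and Tec families 0 passed in edgeR or limma-voom and DESeq2 called 2 lower (5 lower and 0 higher at an unadjusted p under 0.05). Fgr, a myeloid member, had no overlap between groups, at 9.09 ± 3.39 CPM in wild-type and 3.46 ± 0.26 CPM in the heterozygous samples (edgeR adjusted p = 0.0561). Lyn, which is found in more cell types, measured 40.1 ± 8.78 and 28.3 ± 1.25 CPM. Btk, a Tec-family kinase that activates phospholipase Cγ2, measured 3.04 ± 0.87 and 1.502 ± 0.33 CPM.

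Below Syk, 2 of 21 tested adaptors, lipases and PI3-kinase genes fell and 0 rose in edgeR, while DESeq2 called 5 lower and limma-voom 0. They were both of leukocyte PI3-kinases: Pik3cd, the catalytic subunit p110δ, fell from 21.1 ± 4.85 to 8.24 ± 1.88 CPM (−1.35 ± 0.22 on the log2 scale, edgeR adjusted p = 0.0445) and Pik3r5, a regulatory subunit of PI3Kγ, from 8.60 ± 1.98 to 3.05 ± 0.35 CPM (−1.49 ± 0.23, adjusted p = 0.0416). Every wild-type library was above every heterozygous one for both. Plcg2, the phospholipase that Syk activates, stood at 7.72 ± 1.66 and 3.40 ± 0.32 CPM and did not pass (adjusted p = 0.0539). Genes of this list with a positive fold change were the widely expressed Plcg1 (0.29 ± 0.19) and Pik3r1 (0.12 ± 0.28), which were picked after their values were seen.

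Genes of the phagocytic cup, which push actin around an IgG-coated particle, held 6 of the 10 edgeR calls and 13 of the 40 in DESeq2. Of 20 tested, 6 fell and 0 rose in edgeR (2 lower in limma-voom), with a median log2 fold change of −1.04. Vav1, the exchange factor that loads Rac after Syk, went from 12.4 ± 2.91 to 4.499 ± 1.12 CPM (−1.46 ± 0.24 on the log2 scale, edgeR adjusted p = 0.0489), and Rac2, the Rac GTPase of blood cells, from 30.2 ± 9.16 to 13.6 ± 0.12 CPM (−1.15 ± 0.20, adjusted p = 0.0494). Nckap1l, a leukocyte subunit of the WAVE complex, fell from 26.5 ± 6.44 to 11.4 ± 1.22 CPM, and Coro1a, an actin-binding coronin, from 20.2 ± 2.48 to 9.89 ± 1.65 CPM. The class I myosin genes Myo1f and Myo1g fell from 14.6 ± 1.95 to 6.29 ± 1.57 CPM and from 10.1 ± 1.52 to 4.27 ± 0.74 CPM. The widely expressed genes Rac1 (154 ± 4.64 and 138 ± 3.53 CPM), Cdc42 (133 ± 3.84 and 124 ± 9.06 CPM) and Dnm2 (76.4 ± 2.98 and 71.8 ± 8.68 CPM), picked after their values were seen, did not pass. Cdc42 and Dnm2 had overlapping groups, while Rac1 was lower in every heterozygous library. Arpc1b of the same list was also lower without overlap (65.8 ± 9.97 and 46.5 ± 3.95 CPM) and did not pass (edgeR adjusted p = 0.134).

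Phosphatases and docking proteins of the inhibitory arm had a negative fold change in 7 of 10 cases, unlike the positive one of Fcgr2b. Of these 10 tested genes 0 passed in edgeR or limma-voom, and DESeq2 called 3 lower (6 lower and 0 higher at an unadjusted p under 0.05). Inpp5d, which encodes SHIP1, the phosphatase that the Fcgr2b ITIM recruits, stood at 13.3 ± 1.298 CPM in wild-type samples and 6.81 ± 1.27 CPM in heterozygous samples (log2 fold change −0.97 ± 0.18, edgeR adjusted p = 0.0539), without overlap. Ptpn6, which encodes SHP-1, measured 42.3 ± 10.4 and 26.9 ± 3.20 CPM, and Ptpn22 4.08 ± 0.44 and 1.80 ± 0.31 CPM. Of 15 tested inhibitory receptors that carry an ITIM like Fcgr2b, 1 fell (Cd300a, from 11.6 ± 2.97 to 4.59 ± 0.85 CPM, edgeR adjusted p = 0.0494) and 0 rose; DESeq2 called 12 lower and limma-voom 0. The median of these 15 was −1.235, and 14 of them had groups that lay apart in the lower direction, against 11.3% of all tested genes. Ceacam1, an adhesion receptor of hepatocytes, had a fold change of 0.08 ± 0.11. The difference between Fcgr2b and these receptors was not tested.

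Fcer1g also serves other receptors. Of 11 tested ITAM adaptors and their partner receptors 1 fell and 0 rose in edgeR (3 lower in DESeq2 and 1 in limma-voom). This was Clec4e (Mincle, a Fcer1g-coupled receptor for dead cells and glycolipids), which went from 2.81 ± 0.43 to 0.606 ± 0.186 CPM (−2.20 ± 0.33 on the log2 scale, edgeR adjusted p = 0.0357). Tyrobp, the DAP12 adaptor that parallels Fcer1g, measured 34.2 ± 7.29 and 15.3 ± 4.34 CPM without overlap (−1.16 ± 0.23, adjusted p = 0.0602), a fold change near that of Fcer1g. A list drawn up for receptors that bind Syk through a single tyrosine motif held Clec7a, Clec1b, Clec9a and also Clec2d, which is not such a receptor. Of these 4, 0 passed in edgeR or limma-voom and 2 in DESeq2 (3 lower at an unadjusted p under 0.05), with Clec2d at 125.9 ± 6.29 and 109.5 ± 42.3 CPM, Clec1b, the podoplanin receptor, at 10.4 ± 2.27 and 6.26 ± 0.57 CPM and Clec9a, a receptor of dendritic cells for dead cells, at 8.99 ± 0.21 and 4.88 ± 1.79 CPM.

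Of the receptors for immunoglobulin outside the family and of the ligands few were tested, and none passed in edgeR. Of 3 other Fc receptors tested 0 passed in edgeR, DESeq2 or limma-voom and 0 had an unadjusted p under 0.05: Pigr, which carries IgA across epithelia, stood at 1658 ± 64.0 and 1658 ± 289 CPM, Trim21, the cytosolic antibody receptor, at 8.33 ± 1.23 and 6.33 ± 0.35 CPM, and Fcrla, found in B cells, at 0.609 ± 0.326 and 0.524 ± 0.291 CPM. Fcer1a, the IgE receptor subunit that Fcer1g also serves, was not among the tested genes. The immunoglobulin heavy and light chain genes on the ligand list, such as Ighg1, Ighm and Igkc, were not among the gene symbols of the table. Jchain, which joins IgM and IgA, stood at 24.4 ± 11.6 and 12.3 ± 3.80 CPM, and Apcs, a pentraxin that binds Fc gamma receptors, at 79.6 ± 45.8 and 47.2 ± 3.33 CPM (edgeR adjusted p = 0.344 and 0.525). Of the 3 ligand genes tested 0 were called by any of the 3 tools (1 lower at an unadjusted p under 0.05). The partners of FcRn had fold changes near 0, as Fcgrt did. B2m, its light chain, measured 3011 ± 204 and 2662 ± 390 CPM (log2 fold change −0.18 ± 0.14). Alb, its albumin ligand, measured 75290 ± 14550 and 82800 ± 11460 CPM (0.14 ± 0.18). The list drawn up for these partners also held Hfe (0.03 ± 0.11) and Tfr2 (−0.04 ± 0.13), which are not partners of FcRn. Of these 4 genes 0 were called by any of the 3 tools or had an unadjusted p under 0.05.

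**Figure D5:**
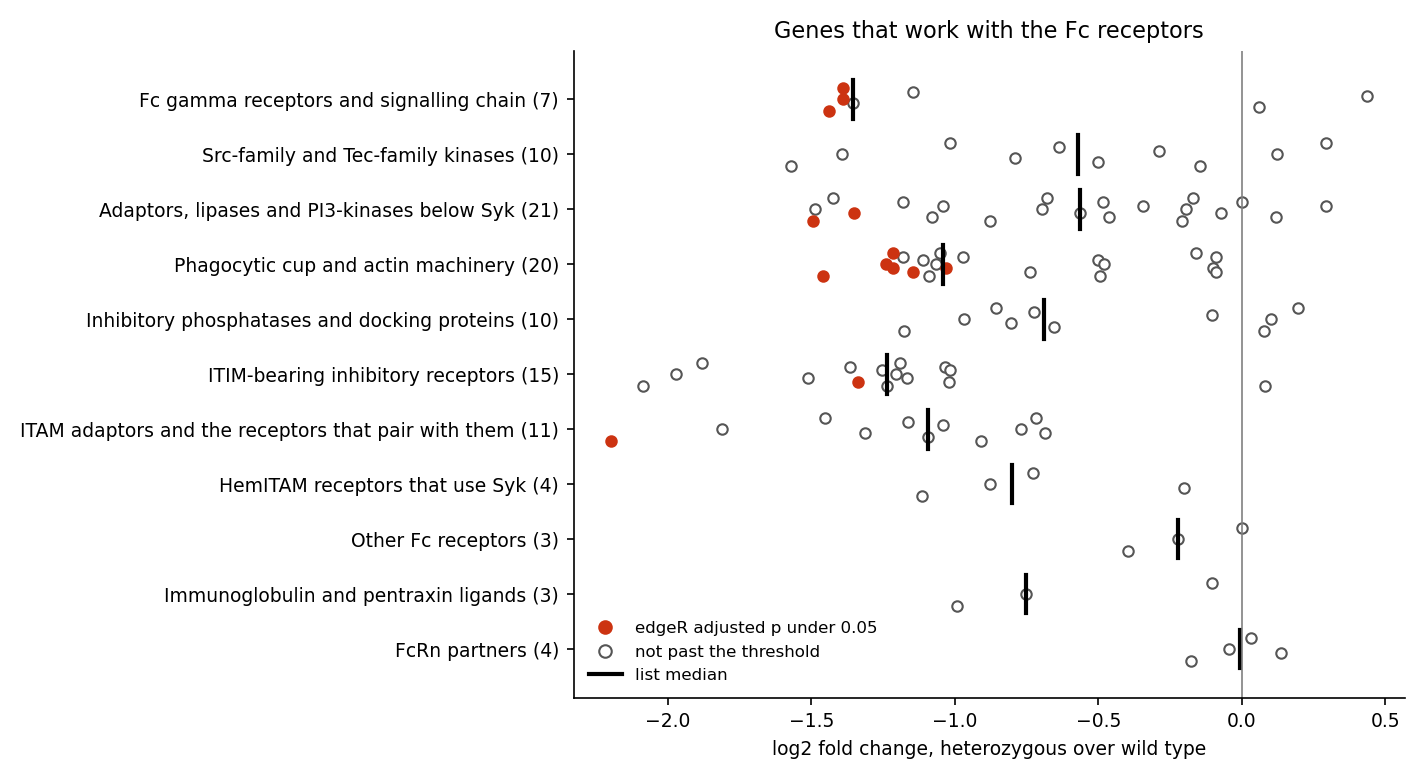
log2 fold change (heterozygous over wild-type) of each tested gene in the 7-gene family and in 10 lists of genes that work with it, with the number tested in brackets; filled points passed an edgeR adjusted p of 0.05 over all genes, and bars are list medians. The medians of the 10 lists lie between −1.24 for receptors with an ITIM and −0.01 for the list named FcRn partners. That list also holds Hfe and Tfr2, which are not such partners. Fcgr2b is the rightmost point, at 0.44.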

How the data were processed

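RNA from 6 liver samples was extracted with TRIzol, and 500 ng was the input of a stranded mRNA kit, per the labels' protocols. The authors deposited raw counts, whole reads per gene symbol, in 1 table. Trimmomatic 0.36, HISAT2 2.2.1.0, HTSeq 0.9.1 and GRCm39 are named in the submitters' processing notes; for the annotation, strand setting and filters, the sources used here give nothing. Groups and replicate numbers came from the sample titles.

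Counts were scaled by TMM in edgeR 4.0.16 (R 4.3.3) after filterByExpr and tested over all 12706 genes that passed with glmQLFit and glmQLFTest (robust, no covariates), with Benjamini-Hochberg adjustment at 0.05. SE is the absolute log2 fold change over the square root of F. log2 CPM used a prior count of 2. DESeq2 1.42.0, limma-voom (limma 3.58.1, robust), RLE and upper-quartile scaling, other filters, a non-robust fit, a replicate block and left-out libraries were alternatives. The test was checked on simulated counts. It called 57.1% of 98 genes changed by 1 log2 unit and 95.9% of 98 changed by 2, with 14 false calls. No 2 libraries agreed within sampling noise (chi-square per degree of freedom of at least 23.3).

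The members and gene lists were chosen with earlier results of these data known. Named genes were the members, up to 6 called genes per pathway list or else the 2 with the smallest p, genes fixed by role (among them Tyrobp, Lyn, Btk, Plcg2, Inpp5d, Ptpn6, B2m and Alb), and per cell list abundant or called markers; not all of these last are printed. Of 17119 symbols 17023 matched the RefSeq table of GRCm38.p6, which supplied promoters and gene order; transcript lengths came from GENCODE M21. Protein motifs were planned and not analysed here. Some genes covered by the rule for named genes are not reported here.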

Additional observations from a re-analysis of the deposited data

How the results depend on the processing

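The fold changes of the 7 members moved by less than the spread between replicates in all 105 refits (15 alternatives for each member). Over these, Fcgr3 lay between −1.56 and −1.27, Fcgr1 between −1.55 and −1.28, Fcgr4 between −1.60 and −1.14, Fcer1g between −1.59 and −1.11, Syk between −1.37 and −0.99 and Fcgrt between −0.004 and 0.12. Calls were less stable. Members past the threshold numbered 3, but 2 (without Fcgr4) under RLE scaling, upper-quartile scaling, the filter of at least 1 CPM in 3 samples and limma-voom, 4 with no filter on low counts, 5 in DESeq2, 1 in the non-robust fit, 0 with wild-type replicate 1 and heterozygous replicate 2 both left out, and 0 to 3 with single libraries left out. Pathway genes called lower numbered 10, but 6 with RLE scaling, 3 with upper-quartile scaling, 21 with no filter on low counts, 6 with at least 1 CPM in 3 samples, 40 in DESeq2, 3 in limma-voom, 0 in the non-robust fit, 0 with those libraries both left out, and 0 to 9 with single libraries left out. With the replicate block 0 of all 12706 tested genes were called in edgeR, and with them 0 members and 0 pathway genes. In that fit 1427 of all genes had an unadjusted p under 0.05. Same-numbered libraries correlated at −0.21, −0.31 and 0.19. With these values, and 2 of 6 samples correlating best with their own number, a shared number was not taken as a pairing. The causes of these changes were not tested. Against Adgre1 and Csf1r alone in place of 12 macrophage markers, the difference was 0.00 (−0.001) for Fcgr1, −0.03 (−0.027) for Fcgr3, −0.03 (−0.029) for Fcgr4, 0.22 for Syk and 1.43 (1.425) for Fcgrt. Fcgr1 rests on 49 to 179 counts per library, the fewest of the members.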

Other observations

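Some markers departed from the rest of their list, and these were picked after their values were seen. Among the macrophage markers Mertk, a receptor for dying cells, stood at 32.0 ± 6.45 CPM in wild-type samples and 21.1 ± 1.36 CPM in heterozygous samples (log2 fold change −0.60 ± 0.15), a smaller difference than those of Lyz2 (−1.68 ± 0.22) and C1qb (−1.19 ± 0.17, edgeR adjusted p = 0.0324). Among the sinusoidal endothelial markers Clec4g, Ehd3, Gata4 and Bmp2 had higher levels in every heterozygous library, as Fcgr2b did, with log2 fold changes of 0.55 ± 0.16, 0.67 ± 0.23, 0.41 ± 0.13 and 1.07 ± 0.22, none past the threshold in edgeR (adjusted p = 0.142, 0.237, 0.186 and 0.0639). Of all tested genes 7.05% had groups that lay apart in the higher direction. Lyve1 of the sinusoidal endothelial list had 20.4 ± 8.31 and 8.90 ± 5.36 CPM, with overlapping groups (−1.19 ± 0.54).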
